A study of Mus musculus with 14 samples.

Results

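The 44 genes described here drive or restrain cell division: cyclins and their kinases, the DNA replication machinery, the mitotic apparatus, and the CDK inhibitors that are also read as marks of senescence. They were chosen by name, with their Ensembl identifiers matched to GENCODE symbols, and make up 44 of the 56941 genes in the count table. RNA of aortic valve leaflets from 14 mice was sequenced in bulk, 1 library a mouse: 4 Ctrl, 2 LY, 4 AngII and 4 AngII+LY mice. All mice were wild-type C57BL/6J males, 8 weeks old at the start. The paper names Breslow Western Diet, a hypercholesterolemic diet, where it describes the AngII infusion. It does not state separately what the Ctrl and LY mice were fed. AngII mice carried subcutaneous osmotic pumps that delivered angiotensin II at 1000 ng/kg/min for 28 days. LY mice were injected intraperitoneally with LY272015, which blocks the serotonin receptor HTR2B, at 3 mg/kg, and AngII+LY mice were given both. The sources differ on how often the antagonist was given and on whether all or a subset of the pumps were taken out 48 h before collection, and some labels number the compound differently, so groups were taken from the sample titles. The paper calls the control mice of its histology saline-treated. No vehicle injection or saline pump is stated for the sequenced Ctrl mice.

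A cell that commits to division needs D-type cyclins with CDK4 or CDK6 and then E-type cyclins with CDK2 to inactivate the retinoblastoma protein RB1, which frees E2F factors to switch on the genes of DNA replication. Cyclins A and B with CDK1 carry the cell into mitosis, where Aurora and Polo-like kinases, the spindle checkpoint and the anaphase-promoting complex separate the chromosomes. The CDK inhibitors p21, p27, p57, p16 and p15 hold this sequence back, and p16 and p21 are widely used marks of senescence. The leaflet of an adult valve is built mainly of interstitial cells that divide rarely, covered by endothelium.

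The tissue label was compared with marker genes first. The 8 interstitial cell markers were all detected, led by Dcn, the matrix proteoglycan decorin, which gave 60.2% of their summed counts, and the 8 endothelial markers were led by Pecam1. RNA of other tissues was abundant as well: all 8 cardiomyocyte markers were detected, led by Tnnt2, cardiac troponin T, and all 6 erythroid markers, led by the beta globin Hbb-bs. No gene of these lists was at 0 in every library. Ctrl 1 stood apart with a smooth muscle marker sum of 439400 normalized counts (counts scaled to a common library size), against 69230, 11630 and 11920 in the other Ctrl mice, and with the highest melanocyte marker sum, 21950. Total counts ran from 20990655 in AngII 4 to 73128220 in AngII 2. The mitochondrial genome took 4, 5.28, 5.49 and 7.52% of counts in the Ctrl mice, 8.62 and 9.76% in the LY mice, 11, 9.83, 24.7 and 25.5% in the AngII mice and 20.2, 10.1, 11.8 and 12.7% in the AngII+LY mice, and every treated mouse lay above every Ctrl mouse.

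The promoters of the members were searched for 3 short motifs known from cell cycle genes, on both strands, from 250 bases before to 50 bases after the start of each gene's canonical transcript. The E2F motif was spelled TTTGGCGC, TTTCCCGC, TTTGGCGG or TTTCCCGG, the cell cycle homology region (CHR), a site of late cell cycle genes, was spelled TTTGAA or TTCGAA, and the CCAAT box was spelled CCAAT. An E2F match was found in 41.7% of the 12 DNA replication promoters and in 4.76% of the 21 mitotic ones, against 4.63% of the promoters of all 19042 tested genes that had one. The CHR showed the other order, with 61.9% of the mitotic and 16.7% of the replication promoters against 17.1% of all. CCAAT was found in 62.8% of the 43 tested members and in 37.8% of all. A match describes the letters of the window and is not a measured binding site. Single promoters follow for Mcm6, the replication helicase subunit with the most reads, and for the mitotic genes Ccnb2 and Top2a, each as the 250 bases before the start, 5′ to 3′ on the gene's strand, which is the minus strand in all 3, in GRCm39. Capitals mark E2F matches in Mcm6, which begin 100 and 37 bases before the start, and CHR matches in Ccnb2, 129 bases before, and in Top2a, 153, 114 and 94 bases before; CCAAT boxes are left in lower case. A further CHR match lay after the printed bases in 2 of the genes, at base 43 of the transcript in Ccnb2 and at base 4 in Top2a. Mcm6 lies at chr1:128287453-128287702, Ccnb2 at chr9:70328875-70329124 and Top2a at chr11:98915042-98915291.
Mcm6: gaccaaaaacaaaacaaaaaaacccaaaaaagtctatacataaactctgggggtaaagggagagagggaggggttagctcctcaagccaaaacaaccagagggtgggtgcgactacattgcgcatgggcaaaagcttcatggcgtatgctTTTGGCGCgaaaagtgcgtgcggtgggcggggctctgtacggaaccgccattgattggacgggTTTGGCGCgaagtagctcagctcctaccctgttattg
Ccnb2: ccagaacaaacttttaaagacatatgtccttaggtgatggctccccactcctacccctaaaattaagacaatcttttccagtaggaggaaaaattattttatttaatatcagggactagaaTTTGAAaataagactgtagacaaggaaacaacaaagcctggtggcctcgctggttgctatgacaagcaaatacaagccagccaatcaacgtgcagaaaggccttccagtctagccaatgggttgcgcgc
Top2a: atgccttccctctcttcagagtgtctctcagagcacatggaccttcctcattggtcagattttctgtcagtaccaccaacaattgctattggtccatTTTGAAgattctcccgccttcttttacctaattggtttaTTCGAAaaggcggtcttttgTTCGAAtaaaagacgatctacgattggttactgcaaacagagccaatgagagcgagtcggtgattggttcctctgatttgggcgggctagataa

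The members covered a wide range of levels per length. In CPM (TMM-scaled) per kilobase of exon, averaged over the 14 mice, Cdkn1a (p21) stood highest at 28.1, followed by Ccnd2 (cyclin D2) at 25.1, Cdkn1c (p57) at 23.3, Pcna at 15.6 and Mcm6 at 12.5. The marks of cells in mitosis were much lower, with Mki67 at 0.645, Top2a at 0.69, Kif11 at 0.175 and the checkpoint kinase Bub1 at 0.174. Cdkn2a, which encodes p16 and p19Arf, was lowest at 0.104. The low mitotic genes also dropped out of single libraries: of the 42 members with a median of at least 50 normalized counts, 8 had a library under 10, or 19.0%, compared with 5.64% of the 14570 genes past the same median, with no matching on level. These 8 were Ccne1, Ccnb2, Aurkb, Plk1, Top2a, Cenpe, Kif11 and Prc1, and 7 of them act in mitosis. Among the Ctrl mice alone, the median coefficient of variation was 36.5% for the 21 mitotic members and 24.2% for the 12 replication members, against 29.0% for all tested genes. AngII+LY 4, with 63011219 counts, held the lowest value of the 14 mice for 11 members, 6 of them mitotic. AngII 4, the smallest library, held the highest value for 7 and the lowest for 5.

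**Figure D1:**
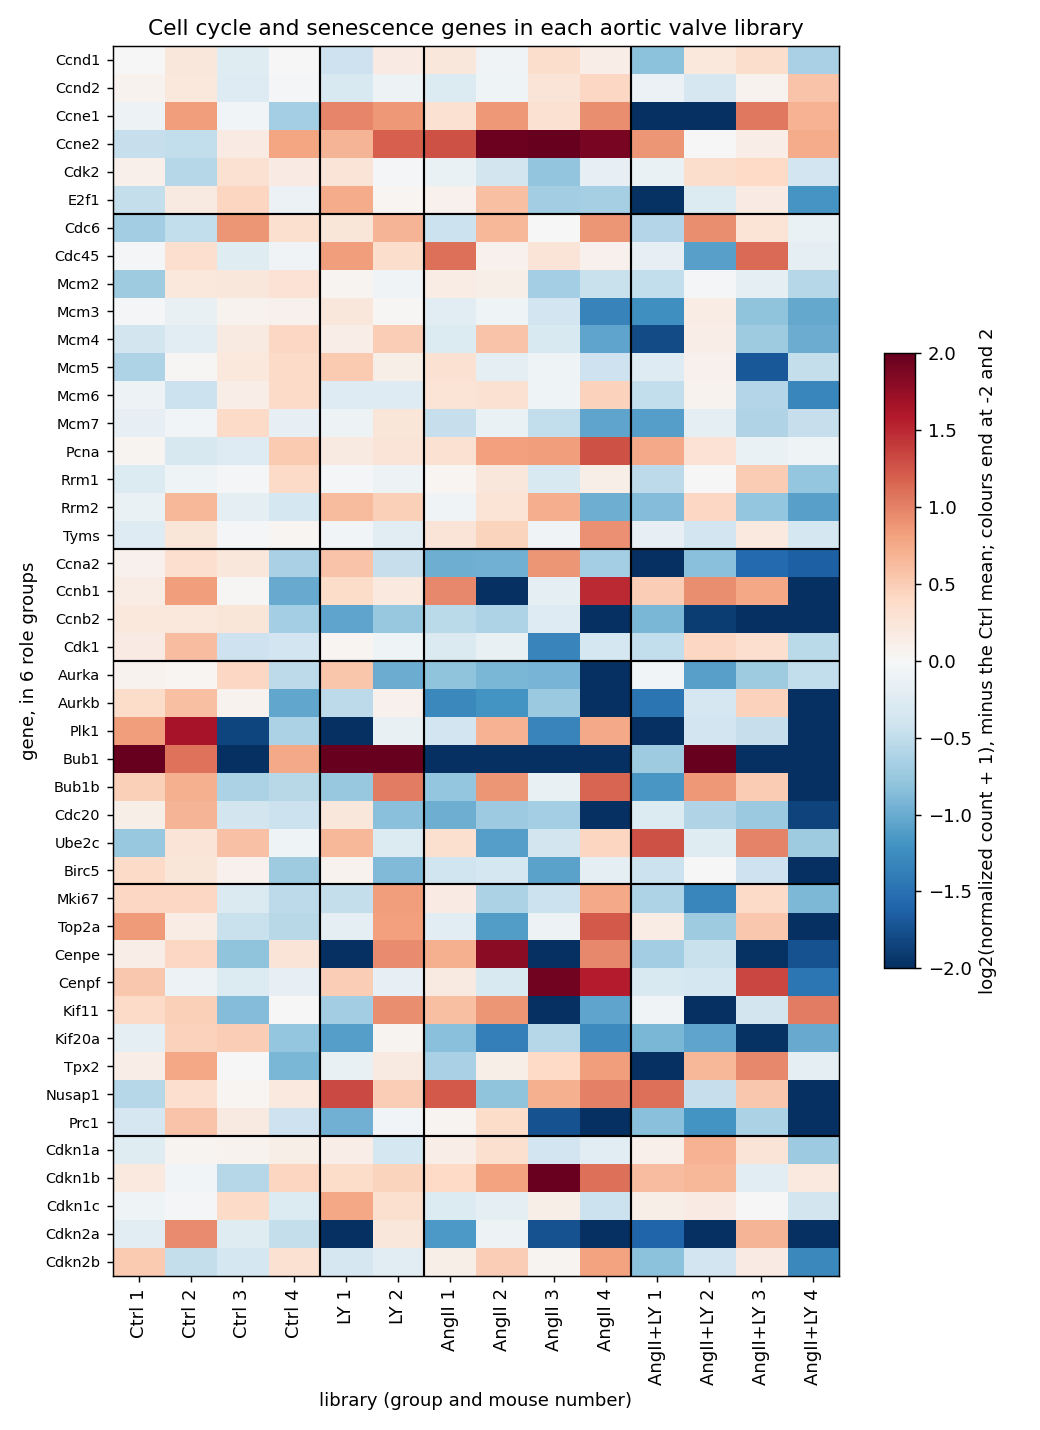
Level of each of the 44 genes (rows, in 6 role groups divided by lines) in each of the 14 libraries (columns), as log2(normalized count + 1) minus the mean of the 4 Ctrl libraries, with colours ending at -2 and 2. Ccne2 is red in all 4 AngII libraries, Bub1 is dark blue in all 4, and AngII+LY 4 is blue for most mitotic genes.

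AngII was first compared with Ctrl, which addresses what the infusion changed. Ccne2 (cyclin E2) rose 3.26-fold and was the single member that passed the test. The 43 tested members had 20 positive and 23 negative log2 fold changes, and the median log2 fold change of the 43 tested members was -0.0415, against -0.0514 for all 19145 genes. The sign of the members' median was not stable: it was 0.00901 with DESeq2 and 0.211 with GC correction, and 0.0118 and 0.024 without Ctrl 2 or AngII 3. The share of all genes called in this comparison was 2.9%. A call required an absolute log2 fold change above 0.5 and, in the quasi-likelihood test of edgeR, a p below 0.05 after Benjamini-Hochberg adjustment. At an unadjusted p below 0.05, 3 members were higher (Ccne2, Pcna, Cdkn1b), where 15.0% of all genes were, and 3 were lower (Aurka, Cdc20, Kif20a), where 12.6% of all genes were. The 4 AngII mice lay wholly above the 4 Ctrl mice for 1 member (7.46% of all genes) and wholly below for 2 (7.56% of all genes).

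AngII+LY mice were then compared with AngII mice, which addresses what HTR2B blockade changed under AngII. No member was called, where 0.919% of all genes were. At an unadjusted p below 0.05, 9 members were lower (13.6% of all genes) and 1, Bub1, was higher (11.2% of all genes). The 9 were Ccne2, Mcm6, Pcna, Tyms, Ccna2, Ccnb2, Cenpe, Cdkn1b and Cdkn2b, and the median of the 43 tested members was -0.347 against -0.0209 for all genes. The 10 members at an unadjusted p below 0.05 became 5, 6 and 5 without AngII 3, AngII 4 or AngII+LY 4. The groups did not overlap for 1 member, lower in AngII+LY (5.66% of all genes), and for none in the other direction (5.45% of all genes). This comparison and AngII against Ctrl share the same 4 AngII mice, so a high or low AngII value enters both with opposite sign. With bulk RNA, fewer cells of a type and less RNA of these genes per cell cannot be told apart.

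Which test was used decides the calls. DESeq2 called 3 members in AngII against Ctrl (Ccne2, Pcna and Cdkn1b), and 2 in AngII+LY against AngII (Ccne2 and Mcm6). It called 18.6% and 14.5% of the 14215 genes to which it gave an adjusted p, among them 42 of the 43 members. The older quasi-likelihood estimate of edgeR called 0 members in these 2 comparisons, and no other gene (0.0% of 19145 in each).

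**Figure D2:**
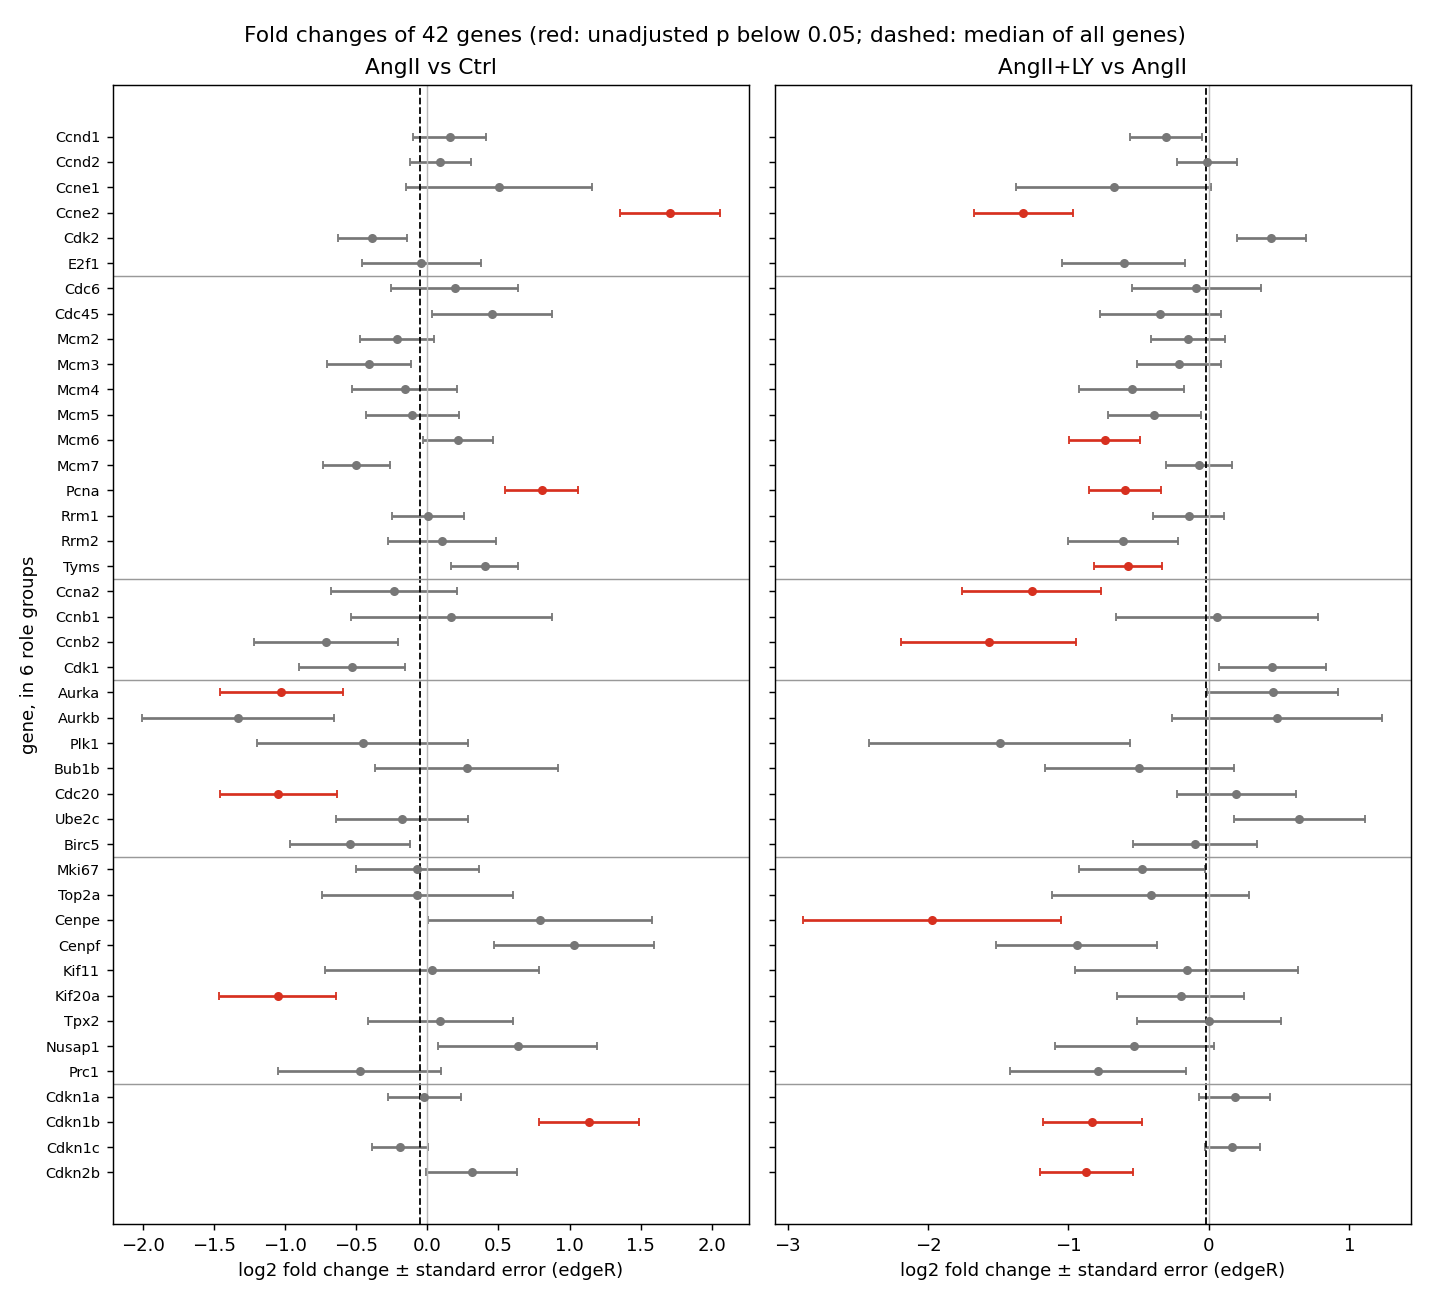
Log2 fold changes (points) with standard errors (bars) from edgeR for 42 members in 6 role groups, AngII vs Ctrl at left and AngII+LY vs AngII at right; red marks an unadjusted p below 0.05, the dashed line the median of all genes, and Bub1 is left out because AngII libraries held 2 counts of it. All 12 DNA replication genes lie below 0 in the right panel (11 with GC correction), and Ccne2 lies farthest to the right in the left panel.

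The G1 genes come first in the order of the cycle. Ccne2 (ENSMUSG00000028212, chr4:11190303-11204947), the cyclin that activates CDK2 at the entry to S phase, had normalized counts of 109, 107, 169.6 and 260.5 in the Ctrl mice, 243 and 347 in the LY mice, 364, 591, 610.5 and 563 in the AngII mice and 277, 150.3, 166 and 252 in the AngII+LY mice. Every AngII mouse lay above every other mouse of the series, and the lowest AngII mouse stood close to LY 2. Ccne2 rose from 162 ± 72.1 to 532 ± 114 (SD, n = 4 each), a log2 fold change of 1.71 ± 0.35 (SE) with an edgeR adjusted p of 0.0439. The call is narrow. The adjusted p was 0.000389 with DESeq2 and 0.042 with other size factors, but 0.0539 with no filter on low counts, 0.0573 with the older quasi-likelihood estimate, 0.0648 with a replicate block, 0.0821 with a correction for GC content, 0.0996 with only the 2 groups compared and 0.168 with the block and GC correction together. The log2 fold change lay between 1.68 and 1.86 in these settings, and in each that ended the call no gene of the table was called. Of the 8 repeats of edgeR that left out a mouse of either group 3 kept the call, those without Ctrl 4, AngII 1 or AngII 2. The log2 fold change stayed between 1.55 and 2.06 in these 8 repeats. In AngII+LY against AngII, Ccne2 had a log2 fold change of -1.32 ± 0.35 (SE) and an edgeR adjusted p of 0.0619, with no overlap between the groups.

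The related E-type cyclin Ccne1 was scarce, from 1.18 to 134 normalized counts, and AngII+LY 1 and 2 were nearly empty of it. Ccnd1 (cyclin D1), which couples growth signals to CDK4 and CDK6, had 1401, 1634, 1178 and 1399 in the Ctrl, 1051 and 1555 in the LY, 1629, 1329, 1776 and 1532 in the AngII and 792, 1609, 1782 and 889.8 in the AngII+LY mice. These groups overlapped throughout, and the log2 fold change of AngII against Ctrl was 0.16 ± 0.26 (SE). With GC correction it was 0.58, at an unadjusted p below 0.05 and an edgeR adjusted p of 0.297. Ccnd2, the G1 cyclin with the highest level per length, had 13343, 14671, 10637 and 12486 in the Ctrl, 10230 and 11885 in the LY, 10554, 11961, 15237 and 16829 in the AngII and 11756, 10050, 13289 and 18925 in the AngII+LY mice, again with overlap. Cdk2, the partner of the E-type cyclins, had log2 fold changes of -0.38 ± 0.24 and 0.44 ± 0.25 (SE) in the 2 comparisons, and the transcription factor E2f1 -0.041 ± 0.42 and -0.61 ± 0.44, none with an edgeR adjusted p below 0.276.

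The 12 replication genes had mixed signs in AngII against Ctrl, with 7 positive and 5 negative log2 fold changes from -0.5 to 0.805. Pcna (ENSMUSG00000027342, chr2:132091082-132095234), the sliding clamp that holds the DNA polymerases on the template, had 1629, 1263, 1314 and 2255 in the Ctrl, 1783 and 1886 in the LY, 1949, 2789, 2814 and 3809 in the AngII and 2650, 1911, 1434 and 1481 in the AngII+LY mice. The 3 highest values of the series were those of AngII 4, AngII 3 and AngII 2, while AngII 1 lay within the Ctrl range. The log2 fold change was 0.80 ± 0.26 (SE) and the edgeR adjusted p 0.0777, so the difference did not pass. Tyms (thymidylate synthase), which makes the thymidine nucleotide, had 616, 877, 725 and 760.0 in the Ctrl, 711 and 637 in the LY, 888, 1011, 703 and 1396 in the AngII and 662, 563, 848 and 579 in the AngII+LY mice, with the highest value again in AngII 4.

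In AngII+LY against AngII all 12 replication genes had negative log2 fold changes, from -0.743 to -0.0701 with a median of -0.367, and 3 of them (Mcm6, Pcna and Tyms) had an unadjusted p below 0.05, where 13.6% of all genes were lower. The number of negative values was 10 without AngII 2, AngII+LY 1 or AngII+LY 4, 11 without AngII 4, and 11 with a correction for GC content, and the median ran from -0.527 to -0.264 when a mouse was left out. Mcm6 (ENSMUSG00000026355, chr1:128259311-128287516), whose promoter holds 2 E2F matches, had 3665, 2919.9, 4311 and 5100.1 in the Ctrl, 3291 and 3269 in the LY, 4724, 4825, 3675 and 5384 in the AngII and 2794, 4125, 2599 and 1590 in the AngII+LY mice. Of the 4 AngII+LY mice, 3 lay below every AngII mouse, and AngII+LY 2 lay among them. Its log2 fold change was -0.74 ± 0.25 (SE), with an edgeR adjusted p of 0.1 and a DESeq2 adjusted p of 0.0438. For Pcna the log2 fold change was -0.60 ± 0.26 (SE, edgeR adjusted p = 0.169) and for Tyms -0.57 ± 0.24 (SE, edgeR adjusted p = 0.158). With GC correction these became -0.19 and -0.32, and of the 12 only Mcm6 had an unadjusted p below 0.05. Mcm7, another subunit of the MCM2-7 helicase, had 1514, 1645, 2212 and 1526 in the Ctrl, 1587 and 2012 in the LY, 1230.3, 1548, 1216 and 821 in the AngII and 791, 1482, 1120.1 and 1242 in the AngII+LY mice; every AngII+LY mouse lay below every Ctrl mouse. The other helicase subunits Mcm2, Mcm3, Mcm4 and Mcm5 had log2 fold changes of -0.15, -0.21, -0.55 and -0.39 in AngII+LY against AngII, and the 2 ribonucleotide reductase subunits Rrm1 and Rrm2 -0.14 and -0.61; with GC correction Mcm4 had -0.098 and Rrm1 had 0.29.

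The summed level of the 12 replication genes was 15810, 18260, 14360 and 16570 normalized counts in the AngII mice and 10940, 15540, 12230 and 8979 in the AngII+LY mice, with AngII+LY 2 inside the AngII range. The interstitial cell markers differed in the same direction. Their sum was 679100, 352000, 369400 and 697100 in the Ctrl mice, 435400 and 762800 in the LY mice, 596200, 651600, 587900 and 630700 in the AngII mice and 370700, 270700, 339000 and 210400 in the AngII+LY mice. Every AngII+LY mouse therefore lay below every AngII mouse, 7 of the 8 markers had negative log2 fold changes in AngII+LY against AngII, and 5 of them had an unadjusted p below 0.05, where 13.6% of all genes were lower. The cardiomyocyte markers differed in the other direction, with sums of 553100, 269600, 728400 and 404800 in the AngII and 1042000, 681300, 1378000 and 2052000 in the AngII+LY mice, 8 of 8 log2 fold changes positive and a median of 1.47. The 6 smooth muscle markers, led by Acta2, had 6 of 6 positive values and a median of 1.95 in AngII+LY against AngII, with sums of 11650, 15060, 21590 and 11460 in the AngII and 13090, 89600, 14890 and 83800 in the AngII+LY mice, and AngII+LY 2 and 4 stood apart. In AngII against Ctrl the same 6 were all negative, with a median of -2.71 and 6 at an unadjusted p below 0.05 (12.6% of all genes were lower), beside the high sums of Ctrl 1 and Ctrl 2 given above; without Ctrl 1 the median was -1.14 and 1 had an unadjusted p below 0.05. The 8 adipocyte markers, led by Fabp4, were also all negative in AngII against Ctrl, with a median of -1.53. Of these, 5 had an unadjusted p below 0.05 and 1 was called, where 2.9% of all genes were. This was Ucp1, the uncoupling protein of brown fat, at -2.84 (edgeR adjusted p = 0.0439). Its call was lost under the same settings as that of Ccne2, at log2 fold changes from -2.88 to -2.64 where all mice were kept. The sums of the adipocyte markers were 59920, 45820, 50760 and 45380 in the Ctrl and 30800, 20820, 48590 and 32020 in the AngII mice. The part of these differences in the values of the cell cycle genes was not tested.

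**Figure D3:**
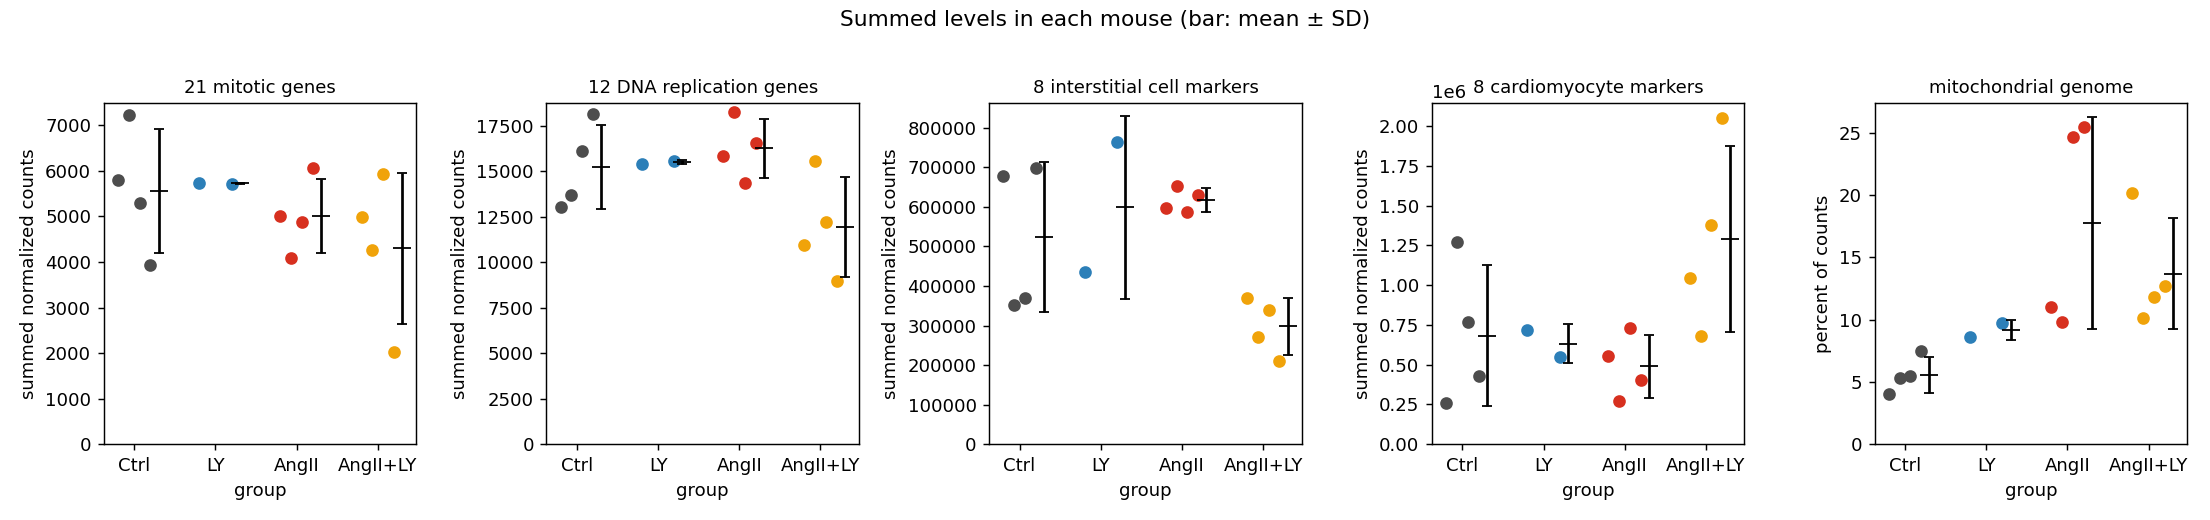
Summed normalized counts of 21 mitotic members, 12 DNA replication members, 8 interstitial cell markers and 8 cardiomyocyte markers, and the percent of counts from the mitochondrial genome, for each mouse (points) by group, with mean ± SD bars. The interstitial sums of the 4 AngII+LY mice lie below those of the 4 AngII mice, and 3 of the 4 replication sums do.

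**Figure D4:**
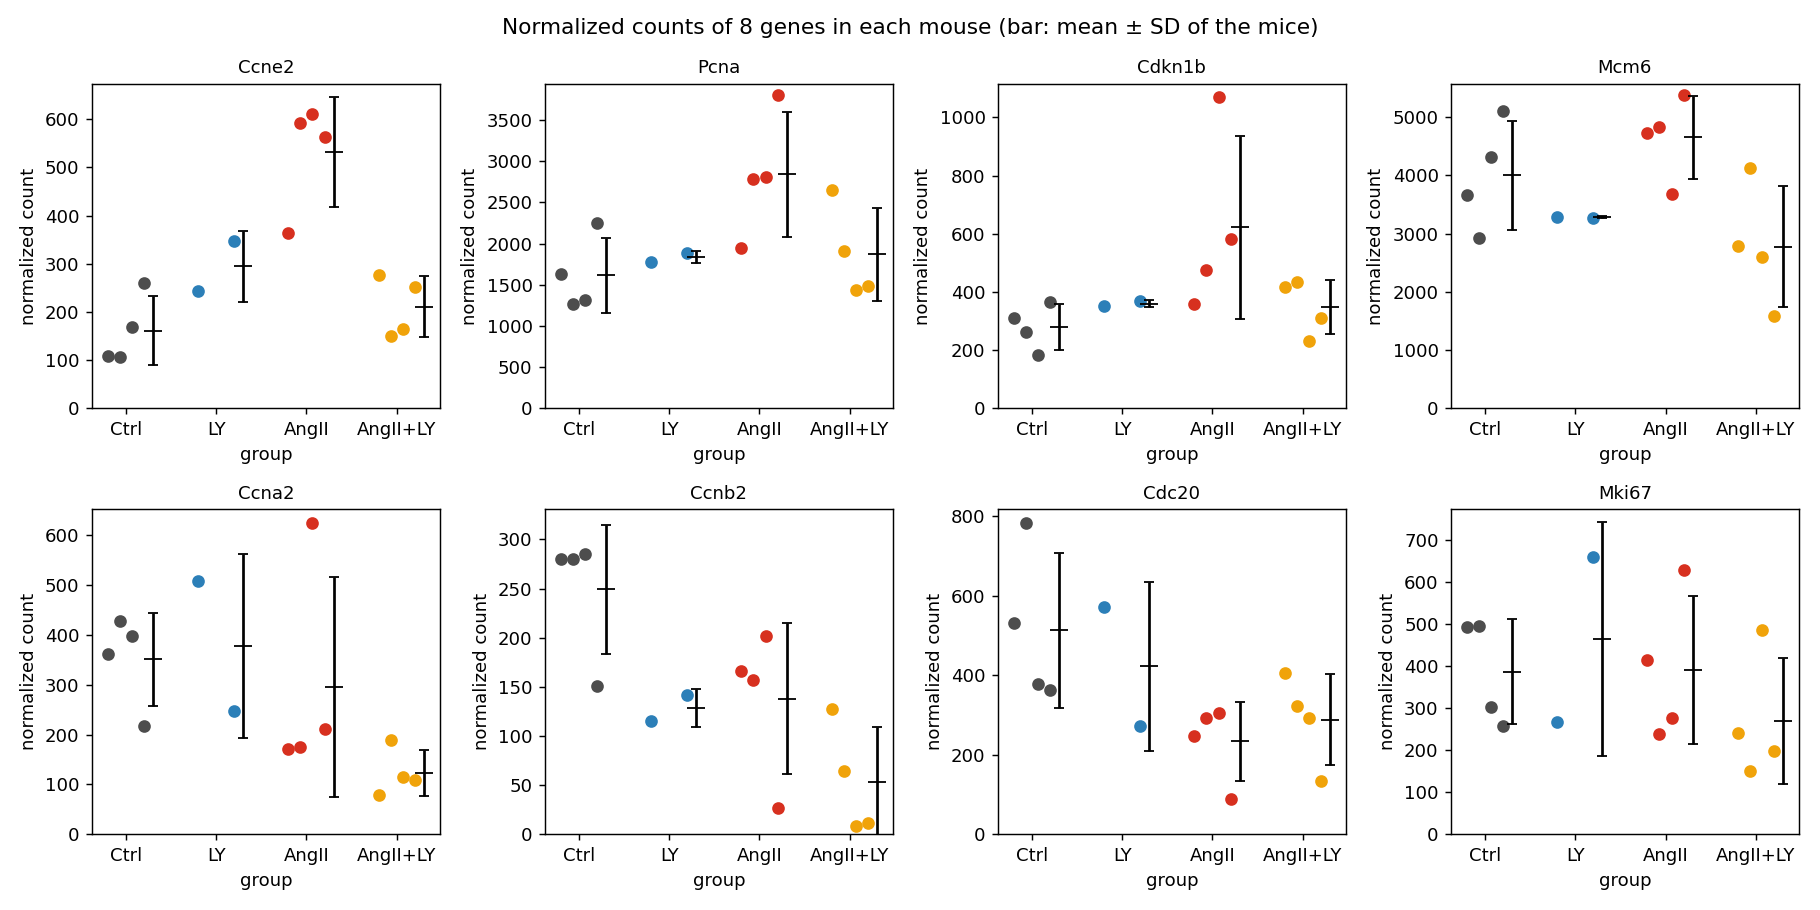
Normalized counts of 8 genes in each mouse (points) by group, with mean ± SD bars cut at 0. The 4 AngII mice lie above all other mice for Ccne2, whereas the groups overlap for Mki67.

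The A and B cyclins and Cdk1 carry the cell through G2 into mitosis. Ccna2 (cyclin A2) had 362, 428, 398 and 217 in the Ctrl, 508 and 248 in the LY, 172, 175, 625 and 212 in the AngII and 79.6, 189, 115 and 109 in the AngII+LY mice. AngII 3 held the highest value of the series, while the other 3 AngII mice lay below all Ctrl mice. In AngII+LY against AngII its log2 fold change was -1.26 ± 0.49 (SE), with an edgeR adjusted p of 0.137; without AngII 3 it was -0.55. Ccnb2 (cyclin B2) had 280.2, 279.9, 285 and 151 in the Ctrl, 115 and 142 in the LY, 166, 157, 202 and 26.5 in the AngII and 128, 63.9, 8.64 and 11.5 in the AngII+LY mice. Every AngII+LY mouse lay below every Ctrl mouse, and AngII+LY 3 and 4 were close to empty. Its log2 fold change in AngII+LY against AngII was -1.57 ± 0.62 (SE, edgeR adjusted p = 0.142), and ran from -2.43 to -1.17 when a mouse was left out. A processed copy, Ccnb2-ps, held a mean count of 67.3, so reads of this gene may have been split.

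Cdk1, the kinase that B cyclins activate, had 289.8, 398, 193 and 198 in the Ctrl, 266 and 243 in the LY, 209.9, 233, 102 and 202 in the AngII and 184, 344, 327 and 177 in the AngII+LY mice. The AngII mice overlapped with the Ctrl and the AngII+LY mice, with log2 fold changes of -0.53 ± 0.37 and 0.45 ± 0.38 (SE) in AngII against Ctrl and AngII+LY against AngII. Ccnb1 (cyclin B1) ranged from 15.7 to 311 among the AngII mice alone and had a log2 fold change of 0.17 ± 0.70 (SE) against Ctrl.

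Among the mitotic kinases and checkpoint genes, 7 of 8 had negative log2 fold changes in AngII against Ctrl, and 2 of these had an unadjusted p below 0.05, where 12.6% of all genes were lower. With GC correction 5 of the 8 were negative, as Plk1 and Ube2c turned positive. Neither Aurka nor Cdc20 then had an unadjusted p below 0.05, and Bub1, with 2 counts in the AngII mice, did. In AngII+LY against AngII 5 of the 8 were positive and 3 negative, with a median of 0.325, and 0.174 with GC correction. Only Bub1 was higher at an unadjusted p below 0.05 there, where 11.2% of all genes were. Cdc20, which activates the anaphase-promoting complex, had 530.1, 782, 378 and 362 in the Ctrl, 572 and 272 in the LY, 247, 294, 305 and 89.3 in the AngII and 405, 322, 292 and 134 in the AngII+LY mice. Every AngII mouse lay below every Ctrl mouse, and the fold was 0.485 (log2 -1.04 ± 0.41 SE, edgeR adjusted p = 0.123). Aurka (Aurora A), the kinase of the spindle poles, had 159.6, 156, 202 and 105 in the Ctrl, 223 and 76.1 in the LY, 86.8, 79.7, 79.3 and 33.1 in the AngII and 146, 71, 92.1 and 107 in the AngII+LY mice. It also lay wholly below Ctrl, at 0.491 of the Ctrl level (edgeR adjusted p = 0.145). With a correction for the GC content of the genes, the log2 fold changes of Cdc20 and Aurka were -0.52 and -0.64.

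Aurkb (Aurora B), the kinase that corrects faulty attachments at the centromere, had 187, 222, 152 and 70.3 in the Ctrl, 101 and 155 in the LY, 58.9, 62.7, 86.5 and 19.9 in the AngII and 52.2, 115, 202 and 0 in the AngII+LY mice. AngII+LY 4 held no read of it, and the log2 fold change of AngII against Ctrl was -1.33 ± 0.68 (SE, edgeR adjusted p = 0.213). Bub1, a kinase of the spindle checkpoint, had 62.5, 30.8, 0 and 24.4 in the Ctrl, 79 and 236 in the LY, 2.07, 0, 0 and 0 in the AngII and 8.24, 167, 0 and 1.92 in the AngII+LY mice. It was absent or nearly so in 4 of 4 AngII, 3 of 4 AngII+LY and 1 of 4 Ctrl libraries, and the 4 AngII libraries held 2 counts together, so no fold is given. With Bub1 set at 3 counts over the AngII group it stayed the most extreme member in both comparisons. The medians of the 43 members therefore could not change, and this says nothing of their stability. Ube2c, which loads ubiquitin for the anaphase-promoting complex, had 369, 749.8, 936 and 588 in the Ctrl, 995 and 516 in the LY, 781, 292, 483 and 844 in the AngII and 1519, 527, 1245 and 379 in the AngII+LY mice, with the 2 highest values in AngII+LY 1 and 3. It overlaps Tnnc2, a muscle troponin gene, on the other strand. Plk1, Bub1b and Birc5 had log2 fold changes of -0.45 ± 0.74, 0.28 ± 0.64 and -0.54 ± 0.42 (SE) in AngII against Ctrl.

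The proliferation marks did not separate the groups. Mki67, which encodes the Ki-67 protein of dividing cells, had 493, 497, 303 and 257 in the Ctrl, 268 and 661 in the LY, 416, 239, 276 and 629 in the AngII and 242, 150.3, 487 and 198 in the AngII+LY mice. Its log2 fold change was -0.069 ± 0.43 (SE) in AngII against Ctrl and -0.48 ± 0.45 in AngII+LY against AngII, with edgeR adjusted p of 0.935 and 0.541. The AngII mice alone spanned 239 to 629, which covers most values of the other groups. Top2a, the topoisomerase that untangles sister chromosomes and whose promoter held 3 CHR matches before the start, had 596, 363, 241 and 225 in the Ctrl, 289 and 584 in the LY, 280.2, 151, 306 and 768 in the AngII and 365, 200.1, 478 and 7.66 in the AngII+LY mice. AngII 4 held the highest value and AngII+LY 4 the lowest by far, and the log2 fold changes were -0.069 ± 0.67 and -0.41 ± 0.70 (SE).

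Of the other chromosome and spindle genes, Kif20a, a kinesin of cytokinesis, had 207, 322, 331 and 137 in the Ctrl, 108 and 243 in the LY, 130.3, 89.9, 157 and 96 in the AngII and 124, 112, 59 and 116 in the AngII+LY mice. Its AngII values were low, at 0.483 of the Ctrl level with an edgeR adjusted p of 0.124, and AngII+LY lay wholly below Ctrl. Cenpe, the kinesin that moves chromosomes to the spindle equator, had 115, 140.0, 59.4 and 126 in the Ctrl, 0.767 and 203 in the LY, 172, 368, 2.4 and 205 in the AngII and 64.5, 76.9, 25.9 and 30.6 in the AngII+LY mice. It was nearly empty in LY 1 and AngII 3, and its log2 fold change in AngII+LY against AngII was -1.97 ± 0.92 (SE, edgeR adjusted p = 0.199). That value ran from -2.39 to -1.21 when a mouse was left out. Nusap1, which bundles spindle microtubules, had 218, 412, 333 and 375 in the Ctrl, 816 and 458 in the LY, 761, 185, 532 and 652 in the AngII and 702, 237, 474 and 57.5 in the AngII+LY mice. Cenpf, Kif11, Tpx2 and Prc1 had log2 fold changes of 1.03 ± 0.56, 0.031 ± 0.75, 0.093 ± 0.51 and -0.48 ± 0.57 (SE) in AngII against Ctrl. The value of Cenpf ran from 0.514 to 1.345 when a mouse was left out.

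The CDK inhibitors differed among themselves. Cdkn1a (ENSMUSG00000023067, chr17:29309936-29319701), which encodes p21, the inhibitor that p53 induces, had 7698, 9500.4, 9621 and 9889 in the Ctrl, 9973 and 7185 in the LY, 9966, 11359, 7014 and 7852 in the AngII and 9850.2, 14856, 10946 and 5528 in the AngII+LY mice. All groups overlapped, and the log2 fold changes of -0.019 ± 0.25 in AngII against Ctrl and 0.18 ± 0.25 in AngII+LY against AngII were smaller than their SE. With GC correction they were 0.48 and -0.022. Cdkn1b (ENSMUSG00000003031, chr6:134897364-134902476), which encodes p27, the inhibitor of resting cells, had 309.7, 262, 183 and 367 in the Ctrl, 351 and 370.1 in the LY, 359, 475, 1072 and 582 in the AngII and 416, 433, 233 and 312 in the AngII+LY mice. Of the AngII mice 3 lay above every Ctrl mouse and AngII 1 just below Ctrl 4. Its level was 2.2 times that of Ctrl (log2 1.14 ± 0.35 SE) with an edgeR adjusted p of 0.0746 and a DESeq2 adjusted p of 0.0164, and without AngII 3 the log2 fold change was 0.71. In AngII+LY against AngII it was -0.83 ± 0.35 (SE, edgeR adjusted p = 0.167), and -0.41 with GC correction.

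Cdkn1c (p57), an imprinted gene of tissues that have left the cycle, had 2519.6, 2611, 3459.6 and 2203 in the Ctrl, 4556 and 3316 in the LY, 2194, 2352, 2891 and 1972 in the AngII and 2896, 2978, 2665 and 2055 in the AngII+LY mice, with the highest value in LY 1. Its log2 fold change in AngII against Ctrl was -0.19, and 0.49 with GC correction. Cdkn2b (p15), which TGFβ induces in many cells, had 799, 402, 438 and 688 in the Ctrl, 441 and 483 in the LY, 604, 781, 580.4 and 973 in the AngII and 314, 429, 625 and 227 in the AngII+LY mice. Of the 4 AngII+LY mice 3 lay below every AngII mouse, and the log2 fold change was -0.87 ± 0.33 (SE) with an edgeR adjusted p of 0.131. Cdkn2a (ENSMUSG00000044303, chr4:89192708-89212890) had 8.68, 20.8, 8.64 and 7.18 in the Ctrl, 0 and 12.2 in the LY, 4.14, 9.54, 2.4 and 0 in the AngII and 2.75, 0, 17.3 and 0 in the AngII+LY mice, a mean of 7.21 counts, which is below the minimum of 10 for a test. The gene-level count does not separate p16 from p19Arf, and with no filter its log2 fold change in AngII against Ctrl was -1.03 ± 1.09 (SE, edgeR adjusted p = 0.72).

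**Figure D5:**
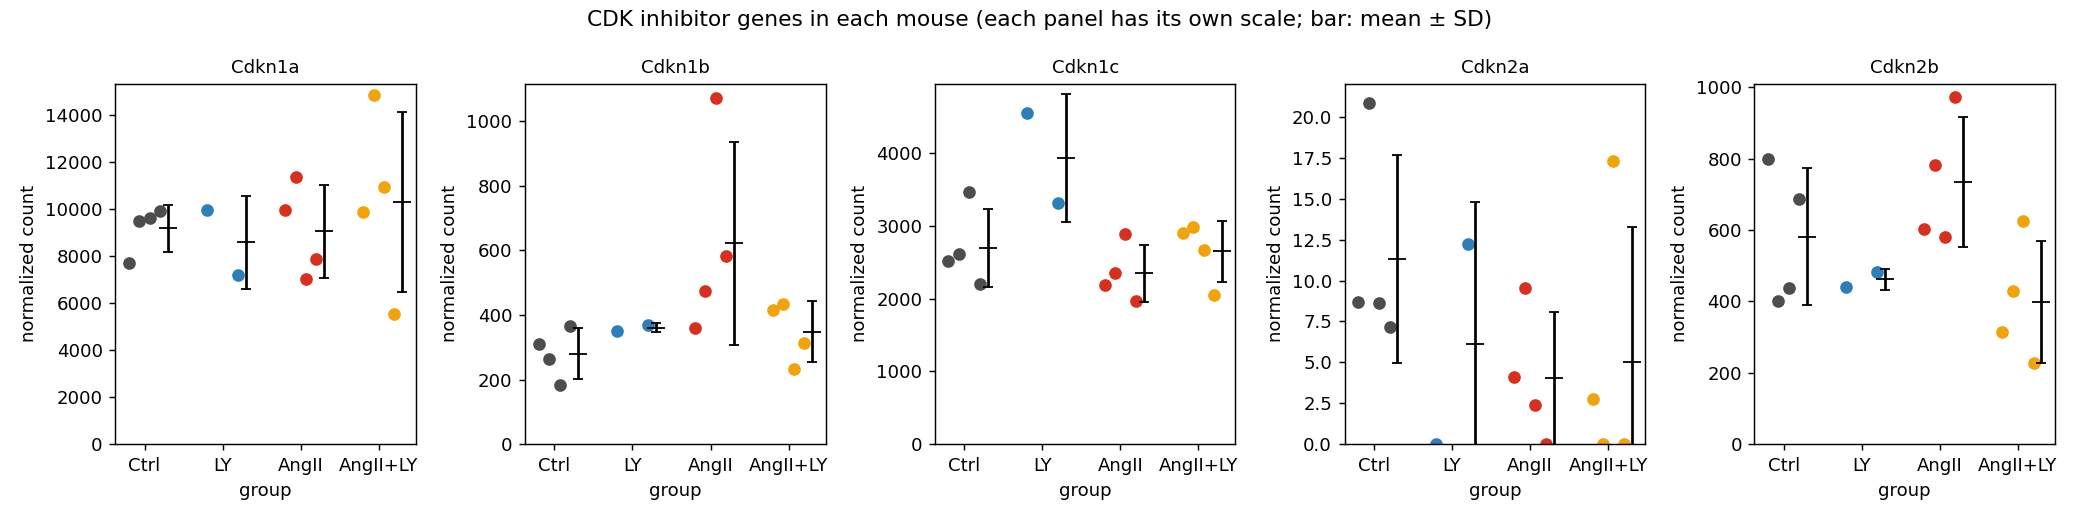
Normalized counts of the 5 CDK inhibitor genes in each mouse (points) by group, with mean ± SD bars and a separate scale in each panel. Cdkn1a overlaps between all groups, Cdkn1b is highest in AngII 3, and Cdkn2a stays at or below 20.8 in every mouse.

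AngII+LY mice were also compared with Ctrl mice. No member was called, and no gene at all (0.0% of 19145), while DESeq2 called 2.48% of the 13850 genes to which it gave an adjusted p, and 0 of the 40 members among them. At an unadjusted p below 0.05, 5 members were lower (Mcm7, Ccna2, Ccnb2, Plk1 and Kif20a), where 7.39% of all genes were, and 0 were higher, where 6.41% were. The 5 became 10 without AngII+LY 2 and 8 without AngII+LY 3. The AngII+LY mice lay wholly below the Ctrl mice for 5 members, Mcm7, Ccnb2 and Kif20a among them, and wholly above for 0. The share of all genes so separated was not counted here, so these separations have no background beside them. The median of the 43 tested members was -0.216 against -0.0225 for all genes. Ccnb2 had the smallest edgeR adjusted p of the members, 0.156, with a log2 fold change of -2.28 ± 0.59 (SE). Ccna2 followed with -1.50 ± 0.48 (edgeR adjusted p = 0.217). By DESeq2 the adjusted p was 0.0784 for Ccnb2 and 0.0742 for Ccna2. Ccne2 had 0.38 ± 0.36 (SE).

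LY alone was tested in 2 mice only. No member and no gene was called against Ctrl (0.0% of 19145), and at an unadjusted p below 0.05 2 members were higher (Bub1 and Cdkn1c, 1.38% of all genes) and 0 lower (1.15% of all genes). The 2 became 0 without Ctrl 2 and 1 without Ctrl 1, Ctrl 3, Ctrl 4 or LY 1. DESeq2 called 0.111% of 18880 genes and 0 of 43 members. Ccne2 in the LY mice had a log2 fold change of 0.86 ± 0.41 (SE) against Ctrl. The effect of LY under AngII minus its effect without AngII was then tested as an interaction, where again no member and no gene was called by edgeR (0.0% of 19145). DESeq2 called 1.86% of the 11283 genes to which it gave an adjusted p, and 0 of 24 members; it gave none to the other 19, Ccne2 among them. At an unadjusted p below 0.05, 2 members had a negative interaction (8.51% of all genes) and 0 a positive one (6.91% of all genes): Ccne2, at -2.18 ± 0.54 (SE) with an edgeR adjusted p of 0.238, and Cdkn1b, at -1.18 ± 0.55 with 0.322. The 2 became 4 without AngII 1, AngII 2 or AngII+LY 1, 5 without AngII+LY 2, 3 without Ctrl 4 or AngII+LY 3, and 1 without Ctrl 1, Ctrl 3, AngII 3 or AngII+LY 4.

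The wider pathway was read from further lists that hold none of the 44 genes. Of 20 other S phase genes, 2 were higher and 0 lower at an unadjusted p below 0.05 in AngII against Ctrl, and 0 were higher and 5 lower in AngII+LY against AngII, none called in either. Of all genes, 15.0% were higher in the first comparison and 13.6% lower in the second. With GC correction the 5 became 1, and all genes at that threshold in the second comparison fell from 4753 to 3380 of 19145. The median of the list there went from -0.437 to -0.581, and that of all genes from -0.0209 to 0.0426. Prim1, the primase subunit that starts new DNA strands, was 431 ± 121 (SD, n = 4) in AngII and 225 ± 61.7 in AngII+LY, with no overlap. Gins1, a helicase partner, was 190.1 ± 62.1 and 93 ± 10.5, also without overlap. Rfc4, a loader of the PCNA clamp, had log2 fold changes of 0.96 ± 0.34 and -0.90 ± 0.35 (SE) in the 2 comparisons, and the chromatin factor Atad2 0.47 ± 0.35 and -0.96 ± 0.36. The median of this list in AngII+LY against AngII was -0.437, beside -0.367 for the 12 replication members and -0.0209 for all genes.

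Of 25 other G2 and M genes, 17 had negative log2 fold changes in AngII against Ctrl and 4 of these an unadjusted p below 0.05, where 12.6% of all genes were lower. Espl1 (separase), which cuts the rings that hold sister chromosomes, was 687 ± 132 in Ctrl and 232 ± 158 in AngII (SD, n = 4), without overlap (edgeR adjusted p = 0.0851). Of the same 25, 18 were negative in AngII+LY against AngII, with a median of -0.48, and -0.192 with GC correction (all genes 0.0426). At an unadjusted p below 0.05, 1 was lower and 2 were higher (13.6% and 11.2% of all genes). In AngII+LY against Ctrl 22 were negative, 6 of them at an unadjusted p below 0.05 (7.39% of all genes). Pttg1 (securin), the inhibitor of separase, had log2 fold changes of -0.37 ± 0.18 in AngII against Ctrl and 0.71 ± 0.18 (SE) in AngII+LY against AngII, the latter with no overlap and an edgeR adjusted p of 0.0583. Foxm1, the transcription factor of the G2 and M genes, had -1.95 ± 0.63 (SE) in AngII+LY against AngII, and the centromeric histone Cenpa 1.18 ± 0.41, so these 2 had opposite signs.

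Among 21 genes of the RB, E2F and DREAM regulators, 9 had an unadjusted p below 0.05 in AngII against Ctrl. Of these, 4 were higher and 5 lower, where 15.0% of all genes were higher and 12.6% lower. With GC correction 3 were higher and 1 lower, and all genes at that threshold fell from 5286 to 3102 of 19145. Cdk6, the G1 kinase that D-type cyclins activate, was called, where 2.9% of all genes were: it rose from 542 ± 180.3 to 1246 ± 438 (SD, n = 4 each), a log2 fold change of 1.19 ± 0.30 (SE) with an edgeR adjusted p of 0.0484 and no overlap. Rb1, the pocket protein that CDK4 and CDK6 phosphorylate, had 1.38 ± 0.35 (SE) and an edgeR adjusted p of 0.0504, just short of the threshold. Lin52, a core subunit of the DREAM complex, was called in AngII+LY against AngII, as were 0.919% of all genes: it fell from 1742 ± 335 to 891 ± 187 (log2 -0.96 ± 0.20 SE, edgeR adjusted p = 0.0497). E2f5, a repressive E2F, had 0.84 ± 0.26 and -0.92 ± 0.26 (SE) in the 2 comparisons, with edgeR adjusted p of 0.074 and 0.0695. Both calls held with DESeq2 and with other size factors and were lost with the older quasi-likelihood estimate, where the adjusted p was 0.0588 for each, and with no filter on low counts, only the groups compared, a replicate block and GC correction, alone or with the block. Over these lost calls the adjusted p ran from 0.0588 to 0.201 for Cdk6 and from 0.0588 to 0.133 for Lin52. The log2 fold change ran from 1.07 to 1.2 for Cdk6 and from -0.968 to -0.774 for Lin52. Of 8 repeats that left out a mouse 2 kept the call of Cdk6 (without AngII 1 or AngII 2) and 1 that of Lin52 (without AngII 1).

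Of 16 genes of p53 and its targets, 6 were lower and 1 higher at an unadjusted p below 0.05 in AngII against Ctrl, where 12.6% and 15.0% of all genes were. With GC correction 1 was lower and 1 higher, and all genes at that threshold fell from 5286 to 3102 of 19145. Btg2, an antiproliferative target of p53, was called, where 2.9% of all genes were: it fell from 6474 ± 1733 to 2988 ± 534 (SD, n = 4 each), a log2 fold change of -1.11 ± 0.24 (SE) with an edgeR adjusted p of 0.0439 and no overlap, and 3 of 8 repeats that left out a mouse kept the call, those without Ctrl 4, AngII 1 or AngII 2. DESeq2 and other size factors kept it too, and the older estimate, no filter, only the groups compared, the block and GC correction, alone or with the block, ended it, with an adjusted p from 0.0574 to 0.196. Where these left GC content uncorrected, its log2 fold change lay between -1.13 and -1.11. With GC correction it was -0.814, and -0.809 with the block added. Trp53 itself had -0.79 ± 0.26 (SE, edgeR adjusted p = 0.0858), the stress sensor Sesn2 -0.95 ± 0.30 and the RNA-binding target Zmat3 0.70 ± 0.26. Cdkn1a, the best known target of p53, stood at -0.019, as given above.

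Of 19 secreted factors associated with senescence, 4 were higher and 4 lower at an unadjusted p below 0.05 in AngII against Ctrl, or 21.1% of the list each way against 15.0% and 12.6% of all genes, none called. Spp1 (osteopontin), a matrix protein of mineralizing and inflamed tissue, had a log2 fold change of 2.93 ± 0.76 (SE) with an edgeR adjusted p of 0.0513, Il1a (interleukin 1 alpha) 3.31 ± 1.05 with 0.0769, and Timp1, an inhibitor of matrix proteases, 1.19 ± 0.39 with 0.0805. Igfbp3, which binds insulin-like growth factors, lay lower without overlap, at -1.99 ± 0.55 with 0.0572. The SD of Spp1 and Il1a within AngII was nearly as large as or larger than the mean: 6219 ± 5331 and 1031 ± 1359 normalized counts (n = 4). The senescence markers Glb1 (lysosomal beta-galactosidase), Lmnb1 (lamin B1) and Hmgb2 had log2 fold changes of -0.42 ± 0.22, -0.68 ± 0.45 and -0.016 ± 0.18 (SE), none with an unadjusted p below 0.05.

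Leukocytes can divide in inflamed tissue, and their markers were set beside these values. All 10 were detected, led by Laptm5, with sums of 30130, 18270, 10740 and 7688 in the Ctrl, 18600 and 13610 in the LY, 7360, 9708, 9115 and 14270 in the AngII and 10300, 12550, 11450 and 10050 in the AngII+LY mice. Of the 10, 8 had negative log2 fold changes in AngII against Ctrl, 5 of them an unadjusted p below 0.05 (12.6% of all genes were lower), and 1 was called, where 2.9% of all genes were. This was Coro1a, at -1.51 with an edgeR adjusted p of 0.0439, and its call was lost under the same settings as that of Btg2; with GC correction its log2 fold change was -0.87. The sums of the 21 mitotic members were 5810, 7224, 5305 and 3927 in the Ctrl, 5739 and 5712 in the LY, 5007, 4089, 4884 and 6068 in the AngII and 4987, 4254, 5923 and 2030 in the AngII+LY mice. The part of leukocyte RNA in these sums was not tested.

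Correction for GC content moved the median of all genes by more than 0.1 on the log2 scale, from -0.0514 to 0.0938 in AngII against Ctrl, and that of the members from -0.0415 to 0.211, so the members lay above the median of all genes in both. It changed the sign of 10 of the 43 log2 fold changes in that comparison and of 6 in AngII+LY against AngII, where the median of the 21 mitotic members went from -0.202 to 0.0091. In AngII against Ctrl 4 members were then higher at an unadjusted p below 0.05 (Ccne2, Pcna, Cdkn1b and Ccnd1) and 1 lower, Bub1, whereas Aurka, Cdc20 and Kif20a did not pass that threshold. Of all 19145 tested genes, those at that threshold fell from 5286 to 3102 in this comparison and from 4753 to 3380 in AngII+LY against AngII. Of the 44 genes, 26 overlap a gene on the other strand, among them Ccne2 with Ints8, Ccna2 with Exosc9, Cdc20 with Elovl1 and Aurka with Cstf1, and as the strand setting of the counting is not given in the sources used here, reads of such pairs cannot be told apart.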

How the data were processed

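Aortic valve leaflets of 14 mice were sequenced in bulk. The authors trimmed the reads, aligned them to GRCm39 (HISAT2) and deposited counts per gene (featureCounts) in a table named normalized; as all its values are whole numbers and library totals run from 20990655 to 73128220, they were treated as raw counts, which no source states. Low even counts exceed low odd ones (13373 values of 2 against 10072 of 1), so both mates of a pair may have been counted.

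Genes were kept where the counts averaged 10 or more, which left 19145, and were tested by the quasi-likelihood test of edgeR 4.0.16 (R 4.3.3) with TMM scaling in 1 fit of all groups (common dispersion 0.3534; two-sided). The newer quasi-dispersion estimate (legacy = FALSE) was used, not the default of this version. Alternatives were DESeq2 1.42.0, other size factors, no filter, 2 groups only, the older estimate, a replicate block, a GC correction and leaving out each mouse. Lengths, promoters and symbols came from GENCODE vM39, where 618 genes had no symbol.

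Members, lists and the choice of estimate were made with earlier results of these data known. Given by mouse were Mki67, Top2a, Cdk1, Ccnd1, Pcna, the CDK inhibitors, the most abundant member of each role and 10 further members of smallest p in AngII against Ctrl or AngII+LY against AngII; up to 4 genes of each other list were named by the same p. The promoters printed were chosen after values were seen.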

Additional observations from a re-analysis of the deposited data

Results flagged for a closer look

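Single mice were tested for a gap to the nearest other that is large against the range of their group. This was done in 75 groups of 4 mice, over the 25 members given by mouse. For normally distributed values chance marks about 1 in 20 groups. That rate does not hold for counts near 0, as those of Bub1 and Cdkn2a. The marked values were these. Cdkn2a stood apart at 20.8 normalized counts in Ctrl 2 (next 8.68) and at 17.3 in AngII+LY 3 (next 2.75). Ccna2 was 625 in AngII 3 (next 212), Ccnb2 was 150.7 in Ctrl 4 (next 279.9), and Aurka was 33.1 in AngII 4 (next 79.3). Bub1 was 2.07 in AngII 1, where the other AngII mice were at 0, and 166.9 in AngII+LY 2 (next 8.24).

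The LY effect with AngII minus that without had an unadjusted p below 0.05 for 2 of the 43 tested members, or 4.65%, both negative. The difference in log2 fold change was -2.18 for Ccne2 (edgeR adjusted p = 0.238) and -1.18 for Cdkn1b (edgeR adjusted p = 0.322). At the same unadjusted threshold 8.51% of all genes had a negative and 6.91% a positive difference. Each difference rests on 2 LY mice.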

How the results depend on the processing

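The median log2 fold change of the members turned sign where it lay near 0. In AngII against Ctrl it went from -0.0415 to 0.00901 with DESeq2, 0.211 with GC correction, 0.134 with GC correction and the block, and -0.0907 to 0.024 when a mouse was left out. In LY against Ctrl it went from 0.115 to -0.00732 with the block. In the other 2 comparisons of groups and in the interaction it stayed negative in every setting. The single call in AngII against Ctrl (Ccne2) became 3 with DESeq2 and 0 with no filter, with only the groups compared, with the older quasi-likelihood estimate, with a replicate block, with GC correction and with both together, settings in which 0 genes of the whole table were called; leaving out a mouse gave 0 to 3 calls, and 0 to 2135 among all genes. In AngII+LY against AngII, 0 calls became 2 with DESeq2 and 0 to 1 when a mouse was left out. Its 10 members at an unadjusted p below 0.05 became 6 with only the groups compared, 5 with the block and GC correction, and 5 to 9 without a mouse; with GC correction alone 2 were higher (Bub1 and Cdk2) and 5 lower (Ccne2, Mcm6, Ccnb2, Cdkn2b and E2f1). In AngII+LY against Ctrl 5 became 9 with no filter, 9 with the block, 3 with GC correction, 3 with both, and 4 to 10 without a mouse. In LY against Ctrl 2 became 1 with no filter, 1 with the older estimate, 4 with the block, and 0 to 2 without a mouse. In the interaction 2 became 1 with the block and 1 to 5 without a mouse. All other settings kept the counts within 1.5 times and the medians within the spread between mice. That spread was an SD of 0.302 in the mean log2 level of the members. The median in AngII+LY against AngII was itself -0.347, so this limit is wide.

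The replicate numbers did not pair the mice: deviations of same-numbered libraries correlated at -0.128 to 0.0897 (18 pairs, median -0.024), other pairs at -0.105 to 0.196, and the block changed the call of Ccne2 and the counts given above. With 2 LY mice, contrasts with LY are imprecise, and AngII 4, with 20990655 counts, has the largest counting error.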
